A study of Mus musculus with 8 samples.

Results

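The interferon response genes are a list of 37 genes that cells switch on when interferon reaches its receptor, and they were followed here in yolk sac tissue of mouse embryos at E9.5 (embryonic day 9.5) with altered Notch signaling in the endothelium. A gene was measured by the probe set that names it alone and has the highest mean signal over the 8 arrays. Of the 37 listed genes, 35 were measured in this way, out of 18194 genes with such a probe set. Isg15 is named here only on a probe set shared with Gm9706, and Ifi44 was not matched to a probe set of its own, so both were not analysed here. The mean signal over all 8 arrays exceeded the filter used for testing (67.9 units) for 20 of the 35 genes, against 10913 of the 18194. The other 15 (Stat2, Irf7, Dhx58, Zbp1, Ifit1, Oasl2, Mx1, Mx2, Gbp2, Usp18, Parp14, Psmb8, Psmb9, Cxcl10 and Xaf1) are described by their signals.

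The 8 Affymetrix arrays (single-channel) fall into 2 sets of 2 mutant and 2 wild type arrays. EC-N1ICD embryos carried a Tie2 transgene and 1 ROSA allele from which the activated intracellular domain of Notch1 is expressed (Tie2 Tg/0; ROSA +/N1ICD), and their wild type carried neither (Tie2 0/0; ROSA +/+), all on C57BL6. EC-Rbpj-KO embryos carried Tie2-Cre and 2 floxed alleles of Rbpj, through which activated Notch binds DNA, on a mixed strain. For the wild type arrays of that set no genotype is given, and they count as wild type by title and source name. The Tie2 promoter is active in endothelium and also in blood lineages, while the tissue measured was whole yolk sac, with its endoderm, mesothelium, blood and macrophages. Comparisons were made within a set, and since the labels do not say whether the arrays came from separate embryos, p-values reflect only how these samples vary. The titles open with a number that replicate 1 of each model shares with none of the other 3 arrays of its set, and its meaning is not stated.

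Interferons are secreted proteins that bind receptors on neighboring cells. Type I interferon receptors activate the kinases JAK1 and TYK2, which phosphorylate STAT2, and STAT2 acts with IRF9 at the interferon-stimulated response element in the promoters of many antiviral genes. The products sense foreign nucleic acid, block translation of viral RNA, modify proteins with ISG15 or ADP-ribose, restrict viral entry and release, and raise antigen presentation.

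The response element has at its core a pair of GAAA blocks separated by 2 bases, and this motif (GAAANNGAAA, searched on both strands, with overlapping matches counted) was looked for in RefSeq promoter windows of 300 bases (250 before to 50 after an annotated start, GRCm38.p6). It was found for 12 of the 29 listed genes with a window (41.4%), against 1079 of 27025 genes (3.99%). The list consists of genes known to respond to interferon, so this is a description of the list and was not tested. The promoters below were picked among genes that hold the motif. Ifit3, Ifit1, Gbp2 and Ifih1 had among the largest differences in EC-N1ICD yolk sac, while Rsad2 did not separate from wild type there. Oasl2 and Xaf1, whose windows lack the motif, had log2 fold changes of 1.78 and 1.95 there. Those of Ifih1 and Ifit1 were smaller, at 1.72 and 1.41. Capitals mark the motif, which appears as its reverse complement where it lies on the opposite strand, and positions are counted from 0 at the annotated start.
Ifit3 (chr19:34583349-34583528, plus strand, positions -180 to -1): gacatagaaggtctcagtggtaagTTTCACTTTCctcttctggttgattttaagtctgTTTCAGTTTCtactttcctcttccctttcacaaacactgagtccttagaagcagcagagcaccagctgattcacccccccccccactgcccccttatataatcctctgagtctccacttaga
Ifit1 (chr19:34640769-34640888, plus strand, positions -120 to -1): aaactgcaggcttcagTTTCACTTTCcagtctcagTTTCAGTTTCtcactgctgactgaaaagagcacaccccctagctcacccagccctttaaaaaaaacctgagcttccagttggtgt
Gbp2 (chr3:142620543-142620662, plus strand, positions -120 to -1): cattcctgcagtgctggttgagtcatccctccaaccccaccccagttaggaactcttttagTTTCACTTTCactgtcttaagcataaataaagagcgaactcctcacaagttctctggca
Rsad2 (chr12:26456453-26456602, minus strand, positions -150 to -1): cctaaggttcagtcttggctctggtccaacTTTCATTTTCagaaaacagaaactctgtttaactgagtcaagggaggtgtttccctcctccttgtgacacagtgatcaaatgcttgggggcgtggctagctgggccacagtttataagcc
Ifih1 (chr2:62646206-62646235, minus strand, positions 20 to 49): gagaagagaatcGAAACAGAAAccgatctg

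Ifit3 and Ifit1, neighbors on chromosome 19, each hold 2 copies before the start, and in Ifih1 the single copy lies after the start. Among the other measured genes the motif was found for B2m, Bst2, Cxcl10, Eif2ak2, Ifitm3 and Stat2. Of the 11 measured genes with the motif, 6 lay above wild type on both EC-N1ICD arrays and 9 on both EC-Rbpj-KO arrays, and of the 16 measured genes whose window lacked it the numbers were 9 and 11. Over all genes the shares were 22.8% and 22.5%, and whether the motif goes with the change was not tested. A gene without a match lacks only these letters in this window. Dhx58, Parp14, Mx1, Mx2, Parp9, Rtp4, Zbp1 and Usp18 had no window in the table used.

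**Figure D1:**
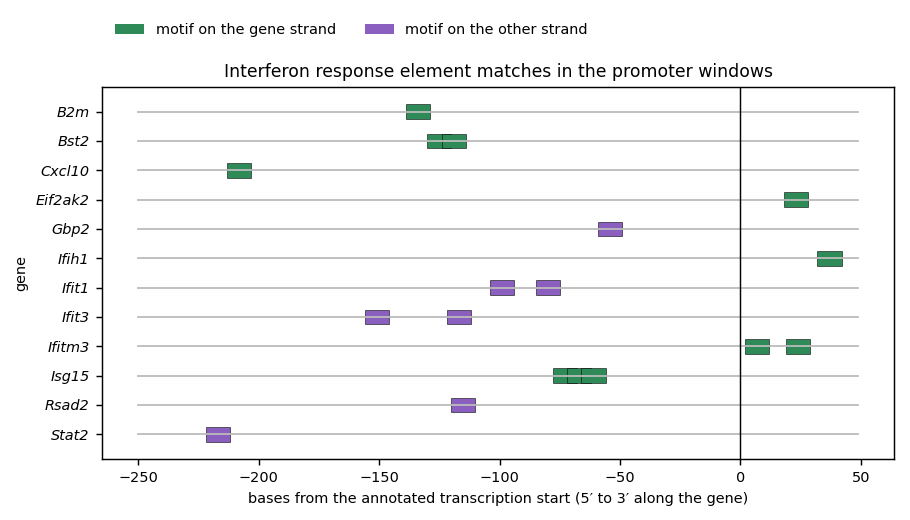
Positions of the GAAANNGAAA motif (boxes) in the 300-base promoter windows of the 12 listed interferon response genes that hold it, with bases from the annotated start on the x axis (0 is the start) and 1 gene per row; color gives the strand. Bst2 and Isg15 hold overlapping copies, and in Eif2ak2, Ifih1 and Ifitm3 the copies lie after the start.

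Most interferon response genes lay above wild type in each model, and none lay below it. Both EC-N1ICD arrays exceeded both wild type arrays for 21 of 35 genes (60%, against 22.8% of all genes), and both EC-Rbpj-KO arrays did so for 26 (74.3%, against 22.5%). The opposite order was seen for 0 of the 35 in either model, against 15.9% and 20.1% of all genes. In 10 of the 21 genes and 12 of the 26, both wild type signals fell short of the median signal of their array. In 3 and 6 of these genes both mutant signals fell short of it too. The shares of all genes were not matched for signal. The median log2 fold change of the 35 was 0.46 for EC-N1ICD and 0.61 for EC-Rbpj-KO, with medians of 0.03 and 0.02 over all genes. The 8 genes with a mean signal over the 60th percentile of genes (280 units) had medians of 0.05 and 0.02, against 0.00326 and -0.06 over all genes at such signals, and 3 and 4 of the 8 lay above wild type. Among the genes above wild type the ratio of geometric means ran from 1.15 to 5.21 in EC-N1ICD, with 12 genes at 2 or more, and from 1.06 to 3.64 in EC-Rbpj-KO, with 10 at 2 or more. With 16 units added to each signal, which weakens ratios against dim wild type arrays, 7 and 4 genes stood at 2 or more. These are whole-tissue RNA levels, in which more cells of a type and more RNA per cell cannot be told apart.

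The 17 genes above wild type in both models (48.6%, against 7.23% of all genes) were Irf7, Ifih1, Dhx58, Zbp1, Ifit1, Ifit2, Ifit3, Oasl2, Gbp2, Usp18, Dtx3l, Parp9, Parp14, Ifitm3, Rtp4, Psmb9 and Xaf1. In EC-N1ICD alone the arrays of Irf1, Irf9, Trim25 and Cxcl10 separated, with ratios from 1.15 (Trim25) to 1.57 (Cxcl10). In EC-Rbpj-KO alone those of Stat2, Eif2ak2, Rsad2, Samd9l, Bst2, Ifitm1, Psmb8, Tap1 and Lgals3bp did, and the arrays of Oasl1, Mx1, Mx2, B2m and Ifi35 overlapped in both.

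**Figure D2:**
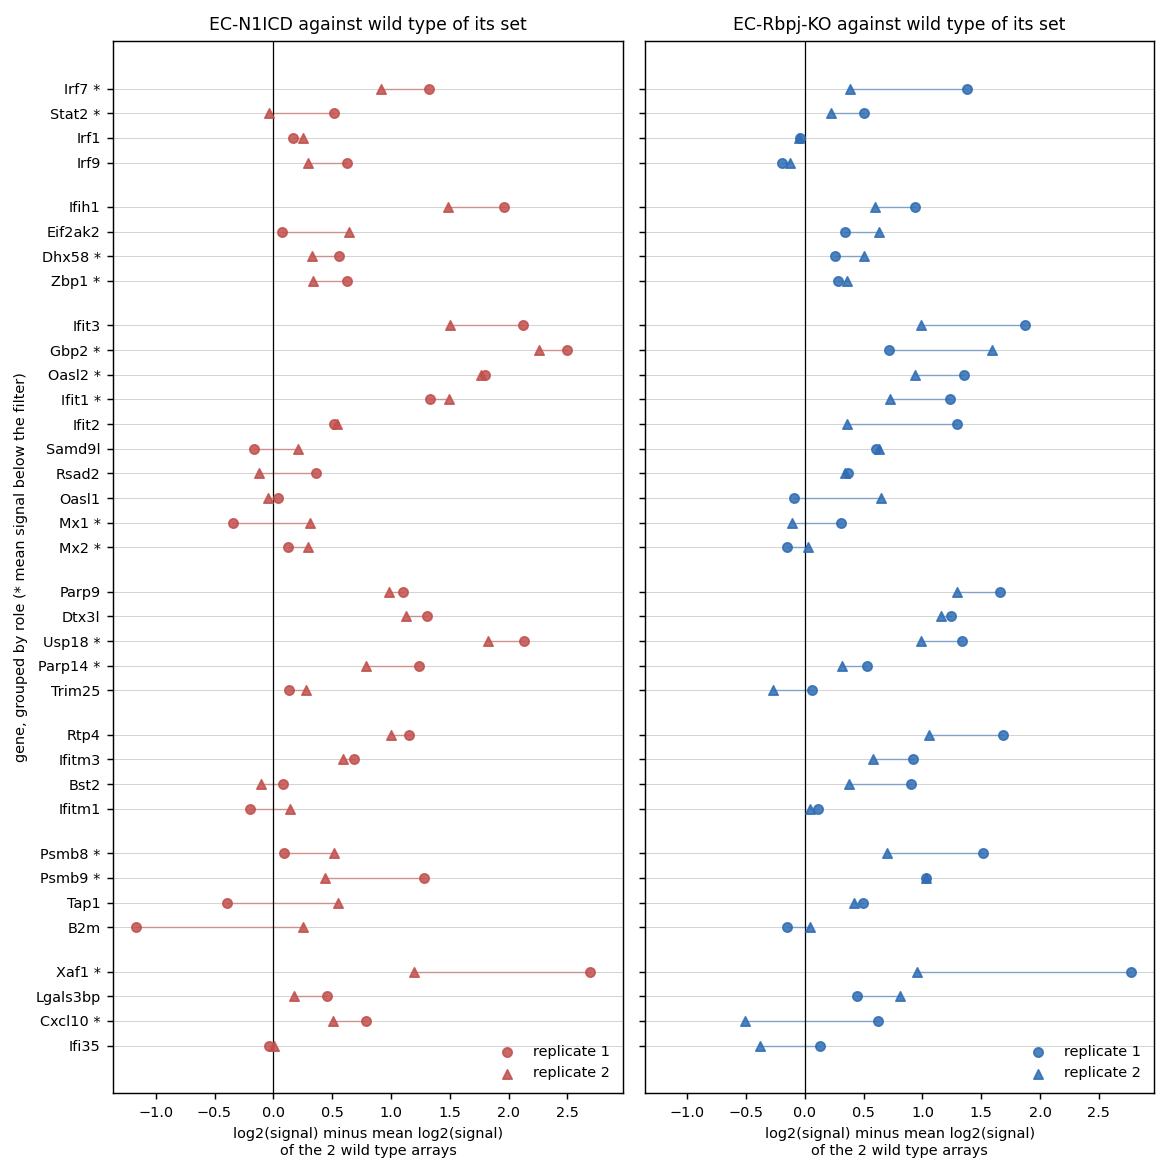
Log2 signal of each mutant array minus the mean log2 signal of the 2 wild type arrays of its set (x axis) for the 35 measured interferon response genes (rows, grouped by role; an asterisk marks genes below the filter). Circles are replicate 1 and triangles replicate 2, left EC-N1ICD and right EC-Rbpj-KO; most pairs lie right of 0, and B2m on EC-N1ICD replicate 1 lies farthest to the left.

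The shift was present on each mutant array. This is no separate support, since most of the genes lay above wild type on both mutant arrays of each model. The median of the 35 genes over the wild type mean was 0.56 and 0.51 (log2) on EC-N1ICD replicates 1 and 2, and 0.60 and 0.50 on EC-Rbpj-KO replicates 1 and 2, where the median of all genes was 0.01, 0.05, 0.00293 and 0.04. Of the 35 genes, between 29 and 31 exceeded the wild type mean on each mutant array.

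In the limma fit, with p-values adjusted by Benjamini-Hochberg over all tested genes, 1 of the 20 tested interferon response genes rose in EC-N1ICD, Ifih1, and 0 fell, where 0.376% of all tested genes were called higher and 0.22% lower. At an unadjusted p under 0.05, 6 of the 20 were higher (Ifih1, Ifit3, Dtx3l, Parp9, Rtp4 and Ifitm3) and 0 lower, and 6.52% of all tested genes were higher. In EC-Rbpj-KO 2 of the 20 rose, Rtp4 and Parp9, and 0 fell, where 2.0% of all tested genes were called higher and 2.96% lower. At an unadjusted p under 0.05, 9 of the 20 were higher and 0 lower in EC-Rbpj-KO, against 8.36% of all tested genes that were higher. These tallies describe the tested genes and are not evidence of a shift, because some passed the filter only through their mutant arrays: the mean wild type signal of the set was at or below the filter for 3 of the 6 (Ifit3, Dtx3l and Parp9) and 5 of the 9 (Ifit2, Ifit3, Dtx3l, Parp9 and Rtp4). Without the filter on low signals, 4 of the 35 were called higher in EC-N1ICD (Ifih1, Gbp2, Oasl2 and Usp18), against 0.247% of all genes, and 3 in EC-Rbpj-KO (Oasl2, Parp9 and Rtp4), against 1.12%. The adjusted p without the filter was 0.019 for Ifih1, 0.028 for Parp9 and 0.026 for Rtp4.

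Without EC-N1ICD replicate 1, 27 of the 35 genes lay above wild type on the remaining array, against 37.4% of all genes. This count could not fall below the 21 genes above wild type on both arrays. Ifih1 was then no longer called, at a log2 fold change of 1.48. It was also not called without wild type replicate 1 or 2 of its set (log2 fold changes 1.89 and 1.55). Without EC-Rbpj-KO replicate 1 the adjusted p was 0.053 for Rtp4 and 0.062 for Parp9. Without replicate 1 of the wild type it was 0.060 for Rtp4, and without replicate 2 it was 0.092 for Rtp4 and 0.14 for Parp9.

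Other features of the arrays moved with the groups. Xist, transcribed from the inactive X chromosome, was carried by both EC-N1ICD arrays (3600 and 3730) and by EC-Rbpj-KO replicate 1 (2005), with signals of at most 96 on the other 5 arrays. The Y-linked Eif2s3y was at 9, 9 and 12 on those 3 arrays and between 702 and 870 on the others. In EC-N1ICD sex and genotype therefore cannot be told apart, and with Xist as a term in the fit, which only the EC-Rbpj-KO arrays can estimate, 0 of the 20 interferon response genes were called by limma in either model (at an unadjusted p under 0.05, 1 in EC-N1ICD, which was higher, and 6 in EC-Rbpj-KO, of which 5 were higher). EC-Rbpj-KO replicate 2, which had Y-linked transcripts as its wild type arrays did, exceeded both of these arrays for 28 of the 35 interferon response genes, against 40.4% of all genes. For 3 genes it lay below both, against 34.1% of all genes. The 28 could not be fewer than the 26 genes above wild type on both EC-Rbpj-KO arrays, and they rest on 1 mutant array.

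None of the 16 macrophage markers was at 0 on any array (signals 14 to 2497), and 9 of them lay above wild type in both models, against 7.23% of all genes. Their summed signal was 4033 and 3399 in EC-N1ICD yolk sac against 3423 and 3593 in wild type, and 5903 and 4427 in EC-Rbpj-KO yolk sac against 3817 and 3179. Ly86, a surface protein of macrophages and B cells, rose in EC-N1ICD (log2 fold change 2.09, adjusted p = 0.029), but its wild type signals of 26 to 29 lay below the array medians, so that it passed the filter through the mutant arrays and background limits its fold. Fcgr3, Mrc1, Cd68 and Fcer1g lay below wild type there. In EC-Rbpj-KO Ly86, Cx3cr1, Csf1r, Adgre1, Laptm5 and Tyrobp rose (log2 fold changes from 1.27 for Tyrobp to 2.91 for Ly86), and Fcgr3 and Cd68 fell (by 2.09 and 0.94 on the log2 scale). The mean wild type signal of this set was below the filter for Ly86 (29 and 26), Cx3cr1 (57 and 26), Adgre1 (85 and 47) and Tyrobp (54 and 49). Ly86, Cx3cr1, Adgre1 and Tyrobp therefore passed the filter through mutant arrays. The summed signal of 8 erythroid markers was 47396 and 80339 in EC-N1ICD yolk sac against 91097 and 95581 in wild type, and 53935 and 65957 against 68376 and 66562 for EC-Rbpj-KO. That of 10 mesothelium and smooth muscle markers was 27868 and 26485 against 18104 and 19156 for EC-N1ICD, and 14852 and 15063 against 13081 and 12721 for EC-Rbpj-KO. Other markers called were Tagln and Myl9 (higher) and Mpo (lower) in EC-N1ICD, and Cldn5, Krt19 and Igfbp1 (higher) and Cubn (lower) in EC-Rbpj-KO. Igfbp1 is 1 of 6 measured decidua and trophoblast markers, and the only 1 of them above wild type in EC-Rbpj-KO. Their summed signal was 10223 and 9340 against 4768 and 5212 for EC-Rbpj-KO, and 4332 and 4017 against 3351 and 5095 for EC-N1ICD. The part of cell content or sex in the interferon response genes was not tested.

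RNA quality differed between arrays. The ratio of 3′ to 5′ signal of Actb was 1.72 and 1.75 for EC-N1ICD against 2.10 and 2.34 in wild type, and 2.29 and 2.09 for EC-Rbpj-KO against 1.90 and 1.84. That of Gapdh was 2.43 and 2.48 against 3.12 and 2.76 for EC-N1ICD, and 4.64 and 3.45 against 3.17 and 3.51 for EC-Rbpj-KO, where the arrays overlapped. Its part in the results was not tested. Rbpj itself gave signals of 470 and 497 in EC-Rbpj-KO yolk sac against 984 and 919 in wild type (log2 fold change -0.98, adjusted p = 0.0087). Notch1 gave signals of 455 and 538 in EC-N1ICD yolk sac against 453 and 335 in wild type, and whether its probe set reads the transgene was not tested.

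In what follows, signals are given for the mutant arrays in replicate order against those of wild type from the same set. Among the signal transducers and transcription factors, Irf7, the factor that amplifies type I interferon production, gave signals of 69 and 52 in EC-N1ICD yolk sac against 38 and 20 in wild type, and of 62 and 31 in EC-Rbpj-KO yolk sac against 21 and 27 in wild type. The mutant arrays were the higher in both models (2.17-fold and 1.84-fold), although EC-Rbpj-KO replicate 2 was close to its wild type. Irf9, the DNA-binding partner of STAT2, gave signals of 165 and 131 against 118 and 97 for EC-N1ICD, and of 172 and 180 against 178 and 218 for EC-Rbpj-KO. Its EC-N1ICD arrays lay above wild type (log2 fold change 0.46, SE 0.23, adjusted p = 0.46), while those of EC-Rbpj-KO did not separate (-0.16). Irf1, a transcription factor downstream of interferon gamma, ranged only from 284 to 356 over the 8 arrays. Stat2 stood at 97 and 80 for EC-Rbpj-KO against 68 and 69, and its EC-N1ICD arrays overlapped wild type.

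Of the 4 sensors of foreign nucleic acid, 3 lay above wild type for EC-N1ICD, and all 4 for EC-Rbpj-KO, against 22.8% and 22.5% of all genes. Ifih1 encodes MDA5, a helicase that detects long double-stranded RNA. Its signals were 421 and 302 in EC-N1ICD yolk sac against 122 and 96 in wild type, and 145 and 115 in EC-Rbpj-KO yolk sac against 77 and 75. The arrays did not overlap in either set, and Ifih1 rose in EC-N1ICD (log2 fold change 1.72, SE 0.25, n = 2 arrays per group, adjusted p = 0.0145 in limma), a 3.29-fold difference. In EC-Rbpj-KO the log2 fold change was 0.76 (SE 0.25, adjusted p = 0.11). The difference between the models was -0.96 (SE 0.35), and its adjusted p of 0.34 was the lowest of all tested interferon response genes. Dhx58, which encodes the related helicase LGP2, and Zbp1, a sensor of Z-form nucleic acid, lay above wild type in both models by 1.25 to 1.40-fold, with signals no higher than 71. Dhx58 lay below the array medians on all 8 arrays. A further Dhx58 probe set lay above wild type in EC-N1ICD (27 and 24 against 22 and 21), and another lay below it in EC-Rbpj-KO (12 and 12 against 14 and 15). The further Zbp1 probe set overlapped wild type in both models. Eif2ak2, the kinase PKR that halts translation on double-stranded RNA, gave signals of 160 and 195 for EC-Rbpj-KO against 122 and 130, a log2 fold change of 0.49 (SE 0.26, adjusted p = 0.32).

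Of the 10 antiviral effectors, 5 lay above wild type for EC-N1ICD and 7 for EC-Rbpj-KO, against 22.8% and 22.5% of all genes. Ifit3, which belongs to a family that binds viral RNA, gave signals of 197 and 128 in EC-N1ICD yolk sac against 38 and 54 in wild type, and of 122 and 66 in EC-Rbpj-KO yolk sac against 37 and 30. Replicate 1, whose title number stands apart, was the higher mutant array in both models. EC-Rbpj-KO replicate 1 was also the only array of its set with Xist (2005), and its Gapdh ratio of 3′ to 5′ signal was the highest (4.64). These features cannot be told apart on that array. The Ifit3 arrays of mutant and wild type did not overlap in either set. The log2 fold change was 1.81 (SE 0.37, adjusted p = 0.0531) in EC-N1ICD and 1.43 (SE 0.37, adjusted p = 0.0502) in EC-Rbpj-KO, just above the threshold of 0.05 in both. Ifit1, of the same family, gave signals of 42 and 47 against 14 and 20 for EC-N1ICD and of 34 and 24 against 15 and 14 for EC-Rbpj-KO. It did not pass the filter, and its mutant arrays were 2.66-fold and 1.97-fold above wild type. Ifit2 gave signals of 115 and 117 against 89 and 73 for EC-N1ICD, and of 138 and 72 against 61 and 52 for EC-Rbpj-KO. EC-Rbpj-KO replicate 1 carried most of its log2 fold change of 0.82 (adjusted p = 0.18).

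Gbp2, a guanylate-binding GTPase that attacks pathogen-containing vacuoles, had the highest ratio of the 35 genes in EC-N1ICD on the scale of unchanged signals. Its signals were 72 and 61 against 9 and 18 for EC-N1ICD, and 18 and 33 against 10 and 12 for EC-Rbpj-KO. All arrays but those of EC-N1ICD lay below the median of all probe sets (38 to 51), so the ratios of 5.21 and 2.22 rest on low wild type signals, and with 16 units added to each signal they were 2.82 and 1.51, and in EC-N1ICD those of Ifih1 (3.0), Usp18 (2.85) and Ifit3 (2.85) then exceeded it. Its other probe set also separated, at 31 and 34 against 18 and 15 for EC-N1ICD and at 19 and 18 against 13 and 14 for EC-Rbpj-KO. Oasl2, a relative of the oligoadenylate synthetases with a ubiquitin-like tail, gave signals of 45 and 44 against 14 and 12 for EC-N1ICD, and of 28 and 21 against 10 and 12 for EC-Rbpj-KO. These were ratios of 3.43 and 2.21, or 2.09 and 1.5 with 16 units added.

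Samd9l, an inhibitor of viral translation, separated in EC-Rbpj-KO (233 and 237 against 151 and 156, log2 fold change 0.61, SE 0.27, adjusted p = 0.23), and in EC-N1ICD its arrays were 98 and 127 against 143 and 84. Rsad2, which encodes viperin, did not separate in EC-N1ICD (657 and 471 against 475 and 551). In EC-Rbpj-KO its signals were 820 and 803 against 727 and 554, with 0.35 as its log2 fold change (adjusted p = 0.36). The dynamin-like GTPases Mx1 and Mx2 lay between 12 and 45 on all arrays, below the array medians. Oasl1 lay between 53 and 97, and none of these last genes separated in either model.

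The enzymes of ISG15 and ADP-ribose modification had the highest median shift of all roles in both models, at 1.04 (EC-N1ICD) and 1.16 (EC-Rbpj-KO) on the log2 scale over 5 genes. Usp18 encodes the protease that removes ISG15 from proteins and dampens receptor signaling. Its signals were 120 and 97 against 29 and 26 for EC-N1ICD, and 69 and 54 against 31 and 24 for EC-Rbpj-KO. The mutant arrays were 3.93-fold and 2.24-fold above wild type without overlap.

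Parp9 and Dtx3l encode an ADP-ribosyltransferase and a ubiquitin ligase that act as one complex. Parp9 gave signals of 130 and 120 against 75 and 49 for EC-N1ICD, and of 185 and 143 against 67 and 51 for EC-Rbpj-KO. It rose in EC-Rbpj-KO (log2 fold change 1.48, SE 0.29, adjusted p = 0.0158), a 2.78-fold difference, and its value in EC-N1ICD was 1.04 (SE 0.29, adjusted p = 0.16). Dtx3l gave signals of 141 and 124 against 83 and 39 for EC-N1ICD, and of 126 and 119 against 58 and 49 for EC-Rbpj-KO. The log2 fold changes of Dtx3l were 1.22 and 1.20 (SE 0.34 each, adjusted p = 0.16 and 0.071), and its wild type arrays in the EC-N1ICD set lay far apart. Parp14, a further ADP-ribosyltransferase, gave signals of 75 and 55 against 29 and 35 for EC-N1ICD, and of 36 and 31 against 24 and 26 for EC-Rbpj-KO. It was 2.02-fold and 1.34-fold above wild type. Trim25, the ubiquitin ligase that acts on the RNA sensor RIG-I, ranged from 5249 to 7064 over the arrays, with ratios of 1.15 and 0.929.

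**Figure D3:**
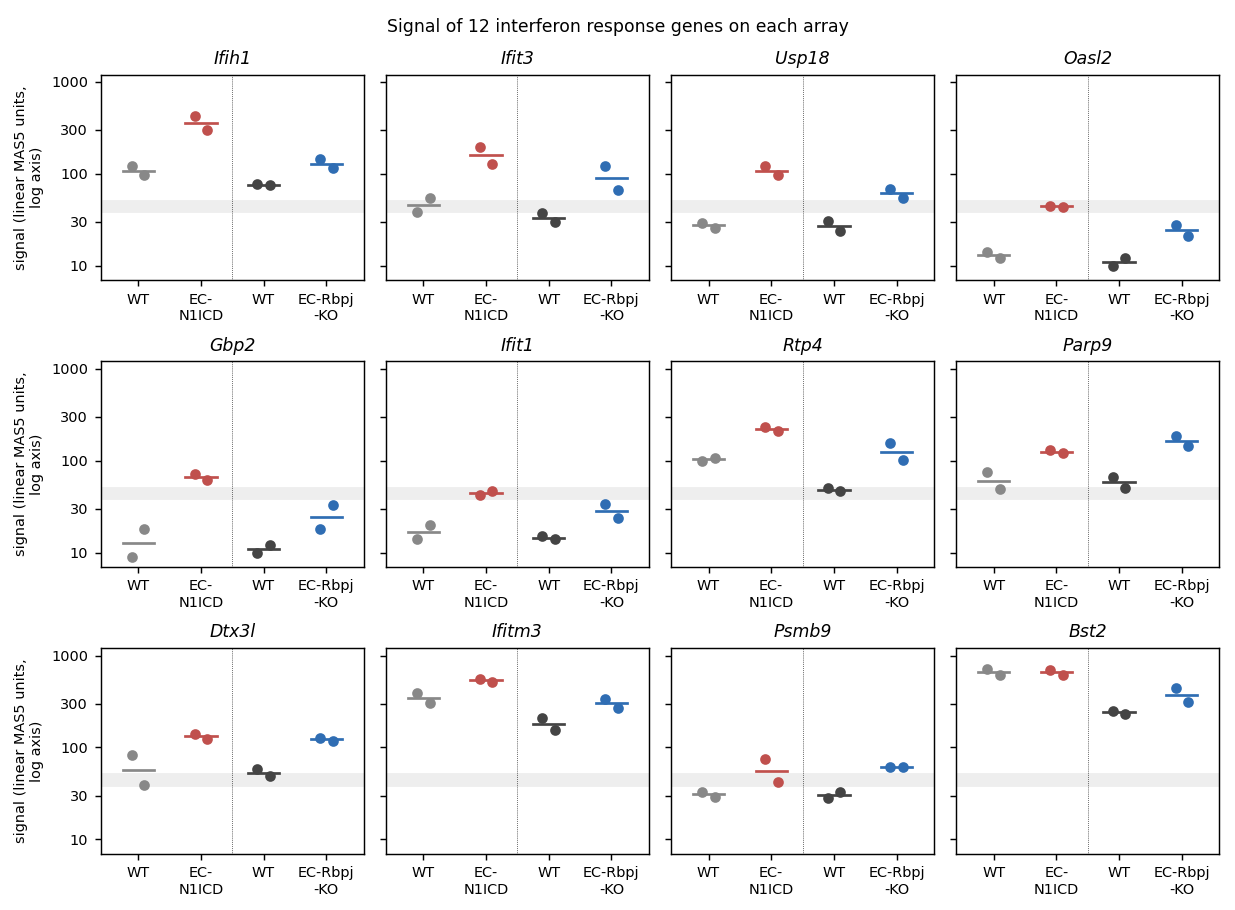
Signals (linear MAS5 units on a log axis) of 12 interferon response genes on each of the 8 arrays; points are arrays, lines are geometric means of 2 arrays, and the grey band spans the medians of all probe sets per array (38 to 51). In all panels except Bst2 in the left set, the mutant arrays lie above both wild type arrays of their set, and the wild type signals of Oasl2, Gbp2, Ifit1, Usp18 and Psmb9 lie under the band.

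Among the membrane proteins, Rtp4, a chaperone of receptors that is induced by type I interferon, separated in both models. Its signals were 231 and 208 against 100 and 108 for EC-N1ICD, and 156 and 101 against 50 and 47 for EC-Rbpj-KO. Rtp4 rose in EC-Rbpj-KO (log2 fold change 1.37, SE 0.26, adjusted p = 0.0135), a 2.59-fold difference, and its value in EC-N1ICD was 1.08 (SE 0.26, adjusted p = 0.10). Ifitm3, which blocks virus entry from endosomes, gave signals of 555 and 520 against 394 and 301 for EC-N1ICD, and of 340 and 268 against 207 and 156 for EC-Rbpj-KO. No arrays overlapped within a set (log2 fold changes 0.64 and 0.75, SE 0.22 each, adjusted p = 0.23 and 0.074). Its neighbor Ifitm1 lay between 369 and 520 on all arrays. Bst2, tetherin, which holds budding virus at the cell surface, gave signals of 700 and 618 against 716 and 614 for EC-N1ICD, and of 449 and 312 against 251 and 231 for EC-Rbpj-KO. Only the EC-Rbpj-KO arrays separated (0.64, SE 0.20, adjusted p = 0.10), and the difference of 0.65 between the models did not pass the test (adjusted p = 0.44).

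Of the 4 genes of antigen processing, 1 lay above wild type for EC-N1ICD and 3 for EC-Rbpj-KO, against 22.8% and 22.5% of all genes. The 1 of 4 in EC-N1ICD is near the share of all genes. The difference between the models was not called for Tap1 or B2m, the tested genes. Psmb8 and Psmb9 encode catalytic subunits of the immunoproteasome. Psmb8 gave signals of 38 and 51 against 47 and 27 for EC-N1ICD, and of 60 and 34 against 21 and 21 for EC-Rbpj-KO. Psmb9 gave signals of 75 and 42 against 33 and 29 for EC-N1ICD, and of 62 and 62 against 28 and 33 for EC-Rbpj-KO. The ratios in EC-Rbpj-KO were 2.15 for Psmb8 and 2.04 for Psmb9. The RefSeq promoter windows of Tap1, the peptide transporter, and Psmb9 share 275 bases. Tap1 gave signals of 95 and 90 against 66 and 69 in EC-Rbpj-KO (log2 fold change 0.45, SE 0.34, adjusted p = 0.50).

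B2m, the light chain of class I molecules, gave signals of 1333 and 3551 in EC-N1ICD yolk sac against 4402 and 2026 in wild type, and of 7247 and 8275 against 7991 and 8092 for EC-Rbpj-KO. Neither set separated. The spread within the EC-N1ICD set exceeded any difference between its groups, and it was the same in the other B2m probe set (847 and 2547 against 3036 and 1354).

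Of the secreted and remaining genes, Cxcl10, a chemokine for T cells, gave signals of 51 and 42 against 29 and 30 for EC-N1ICD, and of 46 and 21 against 39 and 23 for EC-Rbpj-KO, where the arrays overlapped. Lgals3bp, a secreted galectin-binding glycoprotein, gave signals of 105 and 86 against 106 and 55 for EC-N1ICD, and of 100 and 129 against 62 and 87 for EC-Rbpj-KO, with a log2 fold change of 0.63 (SE 0.34, adjusted p = 0.33) in the latter. Ifi35 lay between 508 and 964 and overlapped in both.

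Xaf1, a proapoptotic partner of XIAP, was measured by a pair of probe sets that disagreed between replicates. The brighter one gave signals of 141 and 50 against 25 and 19 for EC-N1ICD, and of 106 and 30 against 15 and 16 for EC-Rbpj-KO. The other gave signals of 22 and 102 against 14 and 19, and of 13 and 50 against 18 and 20. In each model the first was highest on replicate 1 and the second on replicate 2. The level of Xaf1 on a mutant array therefore depended on the probe set read.

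**Figure D4:**
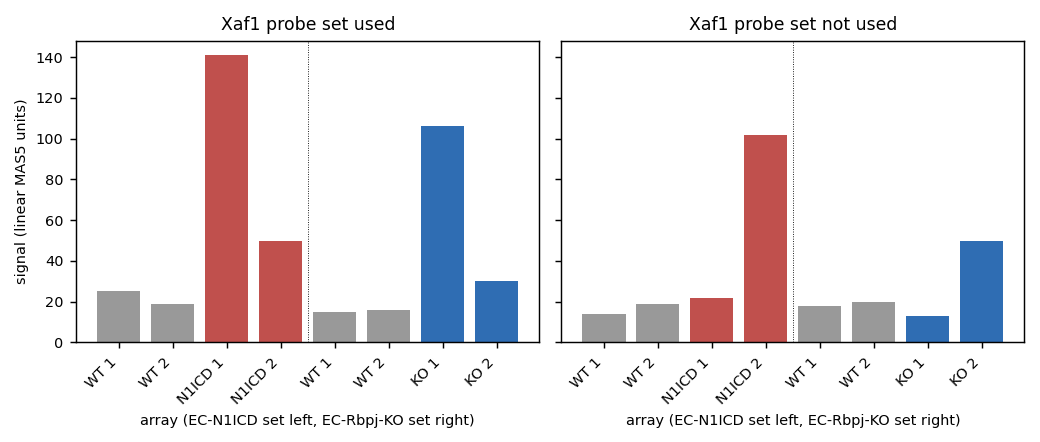
Signals (linear MAS5 units) of both Xaf1 probe sets on each array, grey for wild type, red for EC-N1ICD and blue for EC-Rbpj-KO. The left probe set was high on replicate 1 of both models (141 and 106) and the right one on replicate 2 (102 and 50).

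Across the 15 interferon response genes with further probe sets, 6 of the 22 further probe sets (27.3%) lay above wild type and 4 (18.2%) below in EC-N1ICD, and 3 (13.6%) above and 2 (9.09%) below in EC-Rbpj-KO. Over the further probe sets of all genes, 21.7% lay above and 12.7% below in EC-N1ICD, and 16% above and 20.9% below in EC-Rbpj-KO, so the shares of the further probe sets lay nearer to those of all genes than the shares of the brightest probe sets did. Of the 22, 11 lay below the array median on all 8 arrays, the second set of Rtp4 between 11 and 14 among them.

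Whether the models differed was tested within the same fit, and the contrasts of the models share no arrays. It was called for 0 of the 20 tested interferon response genes, against 0.266% of all tested genes, and for 2 of them, Ifih1 and Bst2, at an unadjusted p under 0.05, against 10.8% of all tested genes. A p that misses the threshold does not show that the genes changed alike in both models.

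**Figure D5:**
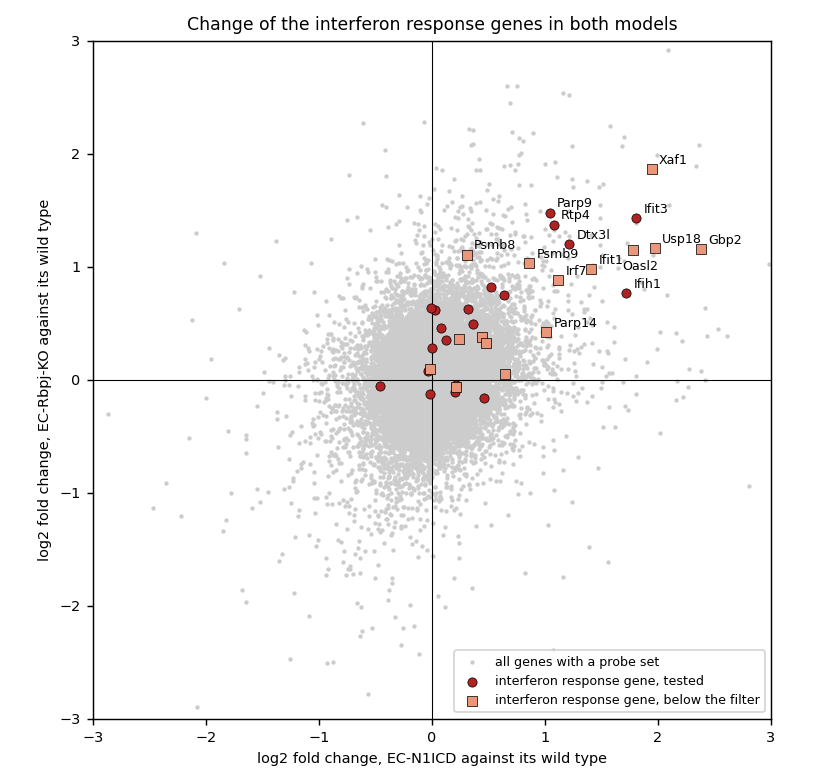
Log2 fold change in EC-N1ICD (x axis) and in EC-Rbpj-KO (y axis), each against its own wild type, for 18183 genes (grey; 11 genes lie outside the axes) and the 35 interferon response genes (circles tested, squares below the filter). Most of the colored points lie right of and above 0, with Xaf1, Gbp2, Usp18, Oasl2 and Ifit3 farthest from it.

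The wild type arrays of the sets also differed. Relative to the EC-N1ICD set, B2m and Irf9 were called higher in the wild type of the EC-Rbpj-KO set (log2 difference 1.43 and 0.88, adjusted p = 0.017 and 0.012), and Bst2, Rtp4 and Ifitm3 lower (-1.46, -1.10 and -0.94, adjusted p = 0.00057, 0.0082 and 0.0071). This makes 2 and 3 of 20, against 25.6% and 8.43% of all tested genes, whose median difference was 0.17. Strain and array set cannot be told apart here. Rtp4 and Ifitm3 had wild type levels that differed between the sets while the mutant arrays lay above wild type in both.

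Outside these genes, 101 further genes of the interferon pathway were measured, 62 of them tested, and 30 lay above and 9 below wild type on both arrays in EC-N1ICD (29.7% and 8.91%, against 22.8% and 15.9% of all genes). In EC-Rbpj-KO 38 lay above and 8 below (37.6% and 7.92%, against 22.5% and 20.1%), and 18 lay above in both (17.8%, against 7.23%). The 10 interferon genes measured, among them Ifnb1 and Ifng, had signals from 10 to 75, and 8 of them lay below the array median on every array. None passed the filter, and 2 of the 10 lay above wild type in each model, against 22.8% and 22.5% of all genes. Ifnz, named after its values were seen, did so in both (68 and 49 against 44 and 34, and 36 and 75 against 32 and 31). Of the 6 receptor genes, Il10rb, a chain of the receptors for IL-10 and interferon lambda, fell in EC-N1ICD (163 and 228 against 442 and 421, log2 fold change -1.16, SE 0.22, adjusted p = 0.038). Its EC-Rbpj-KO arrays also lay below wild type (574 and 588 against 819 and 1167, log2 fold change -0.75, SE 0.22, adjusted p = 0.072 in limma), without a call. Ifngr2, the signaling chain of the interferon gamma receptor, rose in EC-Rbpj-KO (351 and 306 against 168 and 171, log2 fold change 0.95, SE 0.24, adjusted p = 0.045). The type I receptor chains Ifnar1 and Ifnar2 were not called, at log2 fold changes of 0.21 and -0.33 for EC-N1ICD and of 0.28 and -0.34 for EC-Rbpj-KO.

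None of the 11 tested kinases, STATs and regulators passed the limma test. At an unadjusted p under 0.05 in limma, Pias1, Ptpn6 and Irf8 were higher in EC-N1ICD, and Pias1 and Ptpn6 in EC-Rbpj-KO. These make 3 and 2 of 11, where 6.52% and 8.36% of all tested genes were higher. Of the 12 tested genes of the induction pathway, Samhd1, which depletes deoxynucleotides, rose in EC-Rbpj-KO (2007 and 2073 against 1401 and 1411, log2 fold change 0.54, SE 0.14, adjusted p = 0.045). Of 55 other interferon-stimulated genes, 19 lay above (34.5%, against 22.8% of all genes) and 3 below wild type (5.45%, against 15.9%) in EC-N1ICD. In EC-Rbpj-KO 18 lay above (32.7%, against 22.5%) and 3 below (5.45%, against 20.1%). Trim30a, an inhibitor of Toll-like receptor signaling, rose in EC-Rbpj-KO (65 and 63 against 31 and 24, log2 fold change 1.23, SE 0.30, adjusted p = 0.037), and so did Slfn2, a Schlafen family gene (134 and 99 against 56 and 56, log2 fold change 1.04, SE 0.26, adjusted p = 0.046). In EC-N1ICD their log2 fold changes were 1.07 and 0.76 (adjusted p = 0.16 and 0.25). Every Trim30a signal of the EC-Rbpj-KO set lay below the filter. Trim30a passed the filter through the EC-N1ICD set (201 and 145 against 74 and 89). Both wild type signals of Slfn2 in the EC-Rbpj-KO set also lay below the filter.

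Of these other genes 9 lay above wild type in both models (16.4%, against 7.23% of all genes). They were Oas1a, Ifi27, Gbp3, Gbp7, Trim30a, Sp110, Parp12, Slfn2 and Phf11, named after their values were seen. Gbp3, a relative of Gbp2, had the largest log2 differences of the 9 (2.10 and 1.55), with signals of 90 and 53 against 20 and 13 and of 83 and 39 against 19 and 20. Phf11 had the smallest (0.19 and 0.18).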

How the data were processed

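The authors deposited intensity values on a linear scale, a signal for each probe set on each array, made with MAS5 according to the submitters' processing notes (version not given in the sources used here). They ran from 7 to 36554 without detection calls, and array medians over 45101 probe sets from 38 to 51. For arrays, the number of samples limits the precision. Probe sets naming several genes (932) or none (9211) were left out.

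The 37 genes and all other lists were chosen with earlier results of these data known. Log2 signals of all 8 arrays went into limma 3.58.1 under R 4.3.3 (lmFit on 4 groups, eBayes with trend, 4 residual and 7.37 prior degrees of freedom). Only genes whose mean signal exceeded the 40th percentile of genes were tested. Tests were two-sided with Benjamini-Hochberg adjustment over 10913 genes at 0.05. An exact permutation test of 2 against 2 arrays cannot give a p under 0.333 and was not used. A gene lay above wild type where both mutant arrays exceeded both wild type arrays of the set. The steps were tested on simulated data.

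All listed genes measured are named, with all signals for those called or above wild type by at least 1.5-fold in either model. Of the other genes, Rbpj, Notch1, Xist and Eif2s3y (checks), pathway genes called in a mutant and called macrophage markers are named, and further markers after their values were seen. Replicate numbers follow sample order and pair nothing. Alternatives varied the added constant, filter, scaling, probe set choice, samples, variance moderation, test, an Xist term and the arrays kept.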

Additional observations from a re-analysis of the deposited data

How the results depend on the processing

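For the counts of interferon response genes above wild type on both mutant arrays, 3 alternatives changed the values used. These were median centring, quantile normalization and the mean of all probe sets, chosen after seeing the data. Under them the counts were 20 to 22 in EC-N1ICD, 24 to 26 in EC-Rbpj-KO and 15 to 17 in both, with at most 1 gene below wild type. Leaving out 1 array gave 22 to 28, 26 to 29 and 17 to 22. That step could not lower the counts, since fewer arrays have to be exceeded, so it is no check of them. The share of all genes also rose, to 32.5 to 46.6%, 31.5 to 40.4% and 9.36 to 12.8%. Up to 5 (EC-N1ICD) and 3 (EC-Rbpj-KO) genes lay below. The counts of genes called did depend on the processing. In EC-N1ICD the 1 call became 2 with 16 units added, under median centring, quantile normalization, the mean of all probe sets or the arrays of the set alone, 4 without a filter, and 0 with a filter at the 60th percentile, with Xist in the fit or with the methods' t-test after Benjamini-Hochberg (3 unadjusted), and ran from 0 to 3 when 1 array was left out. In EC-Rbpj-KO the 2 calls became 6 under median centring, 4 under quantile normalization or the mean of probe sets, 1 with the set alone, 0 with the 60th percentile, Xist or the adjusted t-test (6 unadjusted), and 0 to 5 when 1 array was left out. The difference between the models gave 0 calls under every alternative run. The 5 calls between wild types became 3 at the 60th percentile, and 2 to 6 when 1 array was left out. Of the other pathway genes, the 1 call in EC-N1ICD became 2 without a filter, 0 with the 60th percentile, the mean of probe sets, no trend, Xist or the adjusted t-test (10 unadjusted), and 0 to 2 when 1 array was left out. The 4 in EC-Rbpj-KO became 7 under median centring, 2 with the mean of probe sets, 1 with the 60th percentile, no filter or the set alone, 0 with Xist or the adjusted t-test (17 unadjusted), and 0 to 2 when 1 array was left out. The 60th percentile removes Ifih1, Rtp4 and Parp9 from the test; the cause of the other changes was not tested. Among single genes, 985 of the recomputed values kept their side of the threshold, 35 passed it and 24 lost it, and none changed direction while called. No paired analysis was possible because the labels give no replicate numbers that pair arrays; the first number of the titles sets replicate 1 of each model apart and pairs no mutant with a wild type array of its own. Low signals limit 15 of the 35 genes.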
